A study of Mus musculus with 6 samples.

Results

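The cytosolic ribosomal proteins were followed in RAW 264.7 cells, a mouse macrophage-like line, stimulated with the bacterial endotoxin LPS with or without 15(S)-HETE (15-HETE), a hydroxylated product of arachidonic acid. Members were genes whose symbol begins with Rpl or Rps and a number or, for the stalk proteins, Rplp, together with Rpsa. The S6 kinases and symbols of pseudogenes were left out. This gave 62 genes of the 13840 that had a probe annotated with a single gene symbol, 41 of the large subunit and 21 counted with the small subunit. The rule reads letters, so it also admitted Rps19bp1, a binding partner of RPS19 that is not itself a ribosomal protein and is counted with the small subunit below. Rps3 and Rps27a had no such probe and were not analysed here.

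All cells received 1 μg/mL LPS, and total RNA was taken at 24 h. The LPS group had 3 biological replicates with LPS alone, and the 15-HETE + LPS group had 3 that also received 40 μM 15-HETE. Each replicate pooled 6 wells of the same cell line, so p-values describe the spread between pooled cultures of a single line. Cells without LPS were not analysed here, so no value below describes the effect of LPS itself. The array gave a linear chemiluminescent intensity for each of 33012 probes, and each gene was read at its brightest probe. Intensities of different probes are not on a common scale per molecule, so levels were compared between samples and not between genes. Fold changes are log2 differences, 15-HETE + LPS minus LPS.

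The ribosome is the particle that reads mRNA and joins amino acids. Its small subunit decodes the message, and its large subunit forms the peptide bond and carries the flexible acidic stalk that recruits elongation factors. Ribosomal protein mRNAs are among the most abundant in a growing cell. They begin with a run of pyrimidines, the TOP motif, through which mTOR signalling controls how strongly they are translated. An array of total mRNA does not measure how strongly an mRNA is translated. Activated macrophages make large amounts of cytokine and enzyme, and several ribosomal proteins have roles there or elsewhere outside the ribosome.

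The start regions of 6 members are shown because they represent the stalk, the partners of 5S RNA, the S6 kinase substrate, the protein of the interferon response and, in Rpl27a, a long pyrimidine run. Each line gives 60 bases in the direction of transcription, 40 before the annotated start and 20 from it, taken from RefSeq promoters of build GRCm38.p6. Capitals mark the longest run of C and T that touched the 5 bases on either side of the start.
Rpl27a, chr7:109519155-109519214, plus strand: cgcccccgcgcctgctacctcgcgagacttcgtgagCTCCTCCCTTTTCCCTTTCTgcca
Rplp2, chr7:141447611-141447670, plus strand: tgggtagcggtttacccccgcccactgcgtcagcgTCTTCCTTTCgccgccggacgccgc
Rplp0, chr5:115559427-115559486, plus strand: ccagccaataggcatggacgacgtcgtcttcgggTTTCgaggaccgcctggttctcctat
Rps6, chr4:86857348-86857407, minus strand: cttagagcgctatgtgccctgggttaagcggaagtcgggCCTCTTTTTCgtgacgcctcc
Rpl13a, chr7:45128726-45128785, minus strand: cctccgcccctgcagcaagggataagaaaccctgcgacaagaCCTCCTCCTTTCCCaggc
Rpl5, chr5:107900488-107900547, plus strand: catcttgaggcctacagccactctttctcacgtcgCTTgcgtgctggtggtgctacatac
The marked run was 20 bases long in Rpl27a, 14 in Rpl13a, 10 in Rplp2 and Rps6, 4 in Rplp0 and 3 in Rpl5.

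A promoter was found by symbol for 52 of the 62 members, which together had 63 windows from 250 bases before to 50 bases after the start. A pyrimidine run of at least 8 bases at the start was present in 31.7% of these windows, against 9.7% of all 32851 windows. The letters CCGGAAG, a form of the site read by ETS factors, occurred on either strand in 36.5% of the members' windows and 8.9% of all. AAGATGG, a form of the YY1 site, occurred in 15.9% and 6.3%, GGGCGG, read by Sp1, in 55.6% and 35.7%, and CTTTCC in 46% and 26.6%. TATAAA was in 9.5% and 13.6%. These matches are descriptions of letters, not sites or causes, and they can overlap one another. The annotated start may also differ from the start used in these cells.

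The labelled cell type was first checked against marker genes. All 7 measured macrophage markers of 10 listed (among them Lyz2, which encodes lysozyme, and Cd14, a co-receptor for LPS) lay above the array median, and 0 of them changed at an adjusted p under 0.05 in limma. Above the median were also 0 of 2 T cell, 1 of 2 B cell, 1 of 3 epithelial, 1 of 3 endothelial, 1 of 1 erythroid and 4 of 4 fibroblast markers. The median alone thus did not separate cell types. By mean log2 intensity the macrophage markers lay at percentiles 82.7 to 100 of the array. Markers of other cell types above the median lay at 54.1 to 78.1. Among the fibroblast markers, Dcn, which encodes decorin, ranged from 11876 to 18190 with LPS and from 5348 to 6192 with 15-HETE + LPS. Its log2 fold change was -1.30 (limma adjusted p = 0.0587, or 0.00298 with a prior that follows intensity). The other fibroblast markers, Col1a1, Col1a2 and Pdgfra, gave -0.49, -0.13 and -0.01 (limma adjusted p from 0.498 to 0.980). Krt8, an epithelial keratin, gave -1.05 (limma adjusted p = 0.112, or 0.0380 with a prior that follows intensity). The part of these markers in the results was not tested. The labels do not say which arrays were run together, so array runs and treatment cannot be told apart.

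A single sample stood apart in the ribosomal proteins. LPS replicate 1 had the lowest intensity of all 6 samples in 46 of the 62 members, or 74.2%. It was the lowest sample in 20% of all probes, in 35.5% of other probes within the brightest 10% of the array and in 41.1% of those within the brightest 1%. Relative to the mean of LPS replicates 2 and 3, LPS replicate 1 differed by a median of -0.48 on the log2 scale over the members, beside 0.04 over all probes. The large subunit stood at -0.48 and the small subunit at -0.53 in this replicate, so the displacement was shared. The replicate was not extreme in the ribosomal proteins alone. Among the other probes of the brightest 10% it was the highest sample in 40.5%, and among those of the brightest 1% in 29.1%, whereas it was the highest in 4 of the 62 members (6.5%). Over all probes the median standard deviation of the LPS group was 0.32 (log2) with it and 0.18 between LPS replicates 2 and 3 alone, a spread of fewer samples. For the 15-HETE + LPS group it was 0.35. LPS replicate 1 correlated at 0.972 and 0.974 with the other LPS samples, which correlated at 0.979 with each other, a description across probes. The 15-HETE + LPS samples correlated less with one another, at 0.9555, 0.9547 and 0.9624. LPS replicate 1 thus lay apart in either direction among bright probes and mostly downward in the members. For the members, values are therefore given with and without it.

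**Figure D1:**
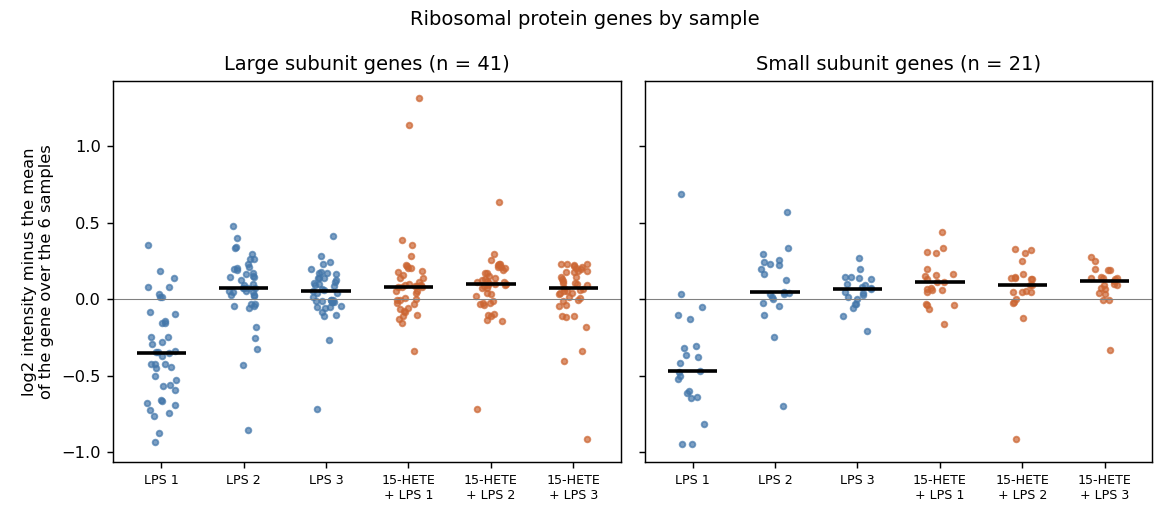
Deviation of each of the 62 ribosomal protein genes from its own mean over the 6 samples (vertical axis, log2), by sample, with the 41 large and the 21 small subunit genes drawn apart. Points are genes and bars are medians. LPS replicate 1 lies low, with a median of -0.40 over all members, and the medians of the other 5 samples lie between 0.06 and 0.10.

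In the members, the replicates of the LPS group were accordingly less alike than those of the 15-HETE + LPS group. The median standard deviation of a member was 0.31 (log2) among the 3 LPS samples and 0.05 among the 3 samples with 15-HETE + LPS. Between LPS replicates 2 and 3 alone it was also 0.05. The spread was larger with LPS alone for 56 of the 62 members (90.3%), for 48.8% of all probes and for 89.4% of the other probes in the brightest 10%. A larger spread with LPS alone thus held for other bright probes as well.

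Ribosomal protein mRNAs were among the brightest on the array. Of the 62 members, 59 lay above the array median of 837 intensity units, 57 in the brightest 10% of probes and 46 in the brightest 1%. The intensities of the array ended at 3047298, a value that belongs to a member, Rps23 of the small subunit in LPS replicate 2, so the members reached the end of the range. The 3 members below the median were Rpsa, the laminin receptor protein of the small subunit, and Rpl39l and Rpl37 of the large subunit. Rpsa and Rpl37 mRNAs are abundant in most cells, so these probes may not read the genes they are annotated with, which was not tested.

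Treatment with 15-HETE changed 0 of the 62 members at an adjusted p under 0.05 in limma, in either direction. At this threshold 0.509% of all probes were higher and 0.442% were lower. At an unadjusted p under 0.05 limma gave 1 member that was higher, Rps14, and 0 that were lower, beside 8.62% and 11.0% of all probes. When the prior variance followed the intensity, again 0 members were called, where 3.87% of all probes were higher and 4.96% lower. With so few calls on the array without the trend, 0 of 62 adjusted calls there is near the background. With the trend, and at the unadjusted p, the members passed less often than all probes. Of 282 other probes in the brightest 1%, limma without the trend likewise called 0, with 2 higher and 14 lower at an unadjusted p. With the trend it called 0 higher and 4 lower. These counts are for the brightest probe of each gene, and a dimmer probe of Rplp0 passed with the trend, as given below.

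Most differences lay above 0, though they missed the test. The median log2 fold change of the members was 0.19, with quartiles of 0.08 and 0.30, and the median over all probes was 0.01. Values above 0 were found for 50 members and below 0 for 12. The 3 samples with 15-HETE + LPS all lay above the 3 with LPS for 16 members (25.8%), beside 13.7% of all probes. They all lay below for 2 members (3.2%), beside 16.3% of all probes. Of the other probes in the brightest 10%, 24.4% lay above in this way and 25.4% below. Of those in the brightest 1%, 16.3% lay above and 16.3% below. The members' share above was thus near that of the brightest 10%, and their share below was smaller than in either bright set. The 2 members below were Rpl19 and Rpl5. The 16 were Rpl4, Rpl10a, Rpl14, Rpl17, Rpl21, Rpl27a, Rpl30, Rpl35, Rpl37a and Rplp0 of the large subunit and Rps7, Rps10, Rps14, Rps19, Rps19bp1 and Rps29 counted with the small. Without LPS replicate 1 the median of the members was 0.03, with 34 above 0 and 28 below. The median above 0 therefore rested on that replicate.

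**Figure D2:**
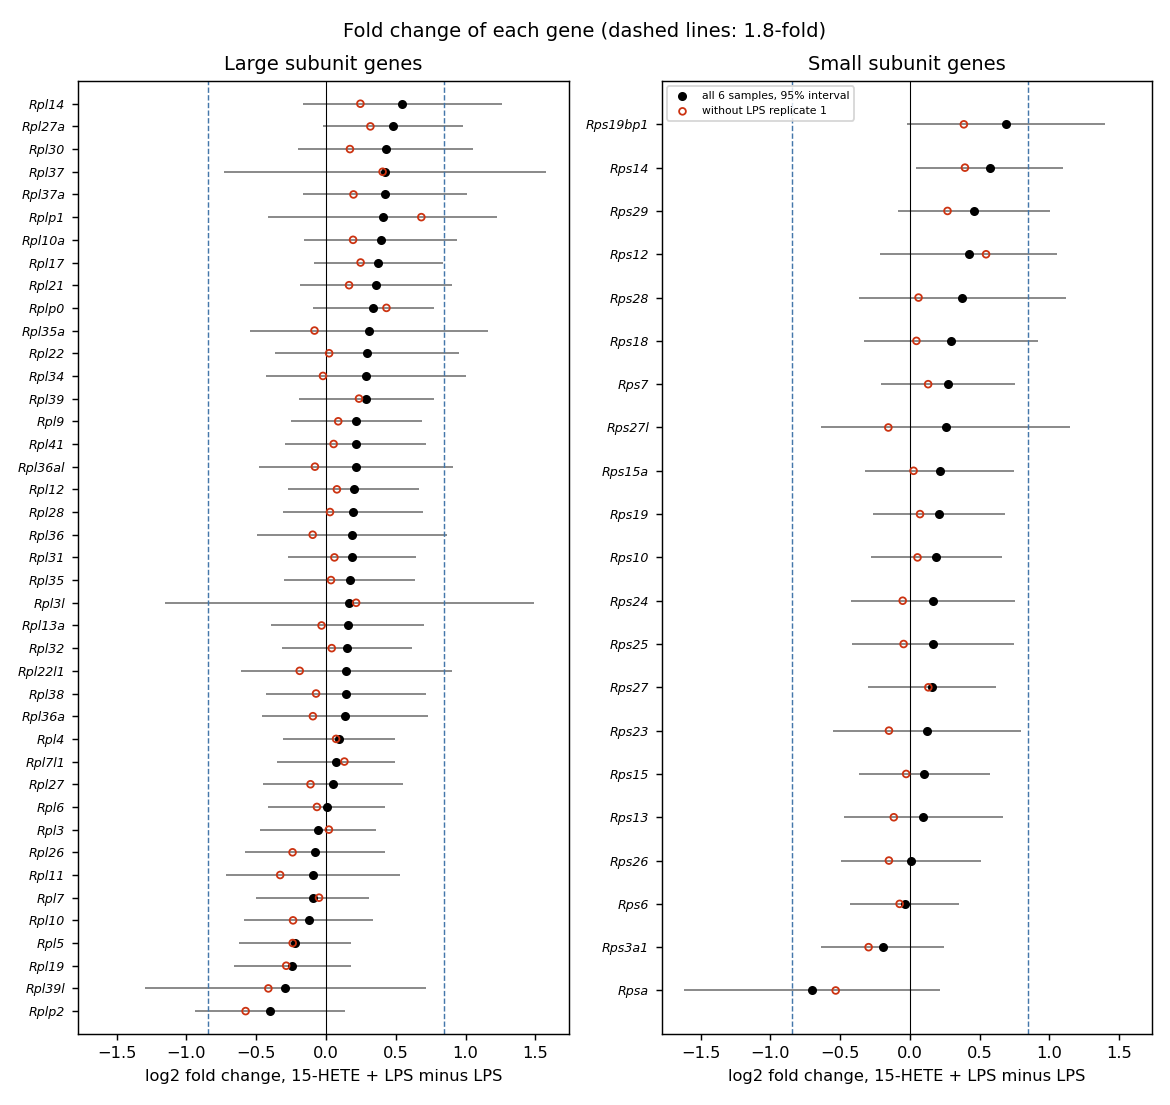
Log2 fold change (15-HETE + LPS minus LPS, horizontal axis) of each member of the large and the small subunit, with the 95% interval from limma, and the value without LPS replicate 1 as an open circle. Dashed lines mark 1.8-fold. Most points lie right of 0 with all samples, and without LPS replicate 1 the median moves from 0.19 to 0.03.

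The differences were bounded about as often as for other probes in the brightest 10%, and less often than for those in the brightest 1%. The 95% interval of the fold change lay within 1.8-fold in either direction, the size used as a fold rule in the study, for 37 of 62 members (59.7%), for 55.2% of the other probes in the brightest 10%, for 78.7% of those in the brightest 1% and for 23.5% of all probes. For the remaining members the interval reached beyond that size, and the number of arrays limits it.

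The large and the small subunit had near-equal medians. The median log2 fold change was 0.19 for the 41 large subunit genes (32 above 0 and 9 below) and 0.19 for the 21 of the small subunit (18 above and 3 below), and the difference of the medians was -0.0026. The median deviation of the large subunit minus that of the small was 0.12, 0.03 and -0.01 in LPS replicates 1 to 3 and -0.03, 0.01 and -0.05 in the 3 samples with 15-HETE + LPS. LPS replicate 1 was again the farthest from the others, and the remaining 5 samples of the 2 groups overlapped. Without it the medians were 0.03 for each subunit. Leaving out Rps19bp1 left 0 members called.

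Among the small subunit, Rps14 had the lowest p. Its protein lies near the platform of the subunit, and loss of a gene copy underlies anaemia in a form of myelodysplasia. Rps14 intensity was 527939, 765268 and 761891 with LPS and 1036967, 1032516 and 943823 with 15-HETE + LPS. Every sample with 15-HETE + LPS lay above every LPS sample. The log2 fold change was 0.57 (95% interval 0.046 to 1.097, limma adjusted p = 0.223), and 0.39 without LPS replicate 1.

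Rps29, a zinc-binding protein of the small subunit, was likewise lowest in LPS replicate 1. It read 597507, 883325 and 894102 with LPS and 1129576, 1084106 and 1003101 with 15-HETE + LPS. The groups did not overlap, and the log2 fold change was 0.46 (limma adjusted p = 0.321), or 0.27 without LPS replicate 1. Rps19bp1 had the largest positive log2 fold change of the members, 0.69 (limma adjusted p = 0.265), from 25486, 48453 and 47234 to 66868, 61460 and 59483. Here too LPS replicate 1 was the lowest, and the log2 fold change without it was 0.39.

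Among the large subunit genes with the lowest p, Rpl27a read 19237, 27508 and 26327 with LPS and 34502, 33990 and 32195 with 15-HETE + LPS. It is the gene with the longest pyrimidine run among the printed start regions. Its groups did not overlap, and the log2 fold change was 0.48 (95% interval -0.02 to 0.98, limma adjusted p = 0.272), or 0.32 without LPS replicate 1. Rpl17, Rpl14 and Rpl37a, structural proteins of the large subunit, had log2 fold changes of 0.38, 0.55 and 0.42 with limma adjusted p of 0.338, 0.363 and 0.393. Their values without LPS replicate 1 were 0.25, 0.25 and 0.20, so each stayed above 0 and became smaller on its brightest probe. A dimmer probe of Rpl14 gave 0.20, or -0.11 without that replicate.

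The members of the acidic stalk lay on either side of 0. Rplp0 anchors the stalk, and Rplp1 and Rplp2 pair with each other on it to recruit elongation factors. Rplp0 intensity was 1054918, 872863 and 865634 with LPS and 1148291, 1222714 and 1151218 with 15-HETE + LPS. All samples with 15-HETE + LPS were above the LPS samples, and LPS replicate 1 was here the highest of its group. The log2 fold change was 0.34 (limma adjusted p = 0.351) and was 0.43 without that replicate.

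Rplp2 lay the other way, at 1000803, 1413542 and 1484704 with LPS and 883325, 1008465 and 1030026 with 15-HETE + LPS. LPS replicate 1 fell inside the range of the treated samples, and the other LPS samples lay above all of them. The log2 fold change was -0.40 (limma adjusted p = 0.379), or -0.58 without LPS replicate 1. Rplp1 read 2031707, 879716 and 1479819 with LPS and 2031707, 1956016 and 1546854 with 15-HETE + LPS. Its LPS samples spanned the treated ones entirely, with LPS replicate 1 as bright as the brightest treated sample, and the log2 fold change was 0.41 (limma adjusted p = 0.551). It was 0.68 without LPS replicate 1 and 0.08 without LPS replicate 2, so these samples decided its size. A difference between the stalk genes was not tested. Array intensity does not read the amount of any stalk protein.

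**Figure D3:**
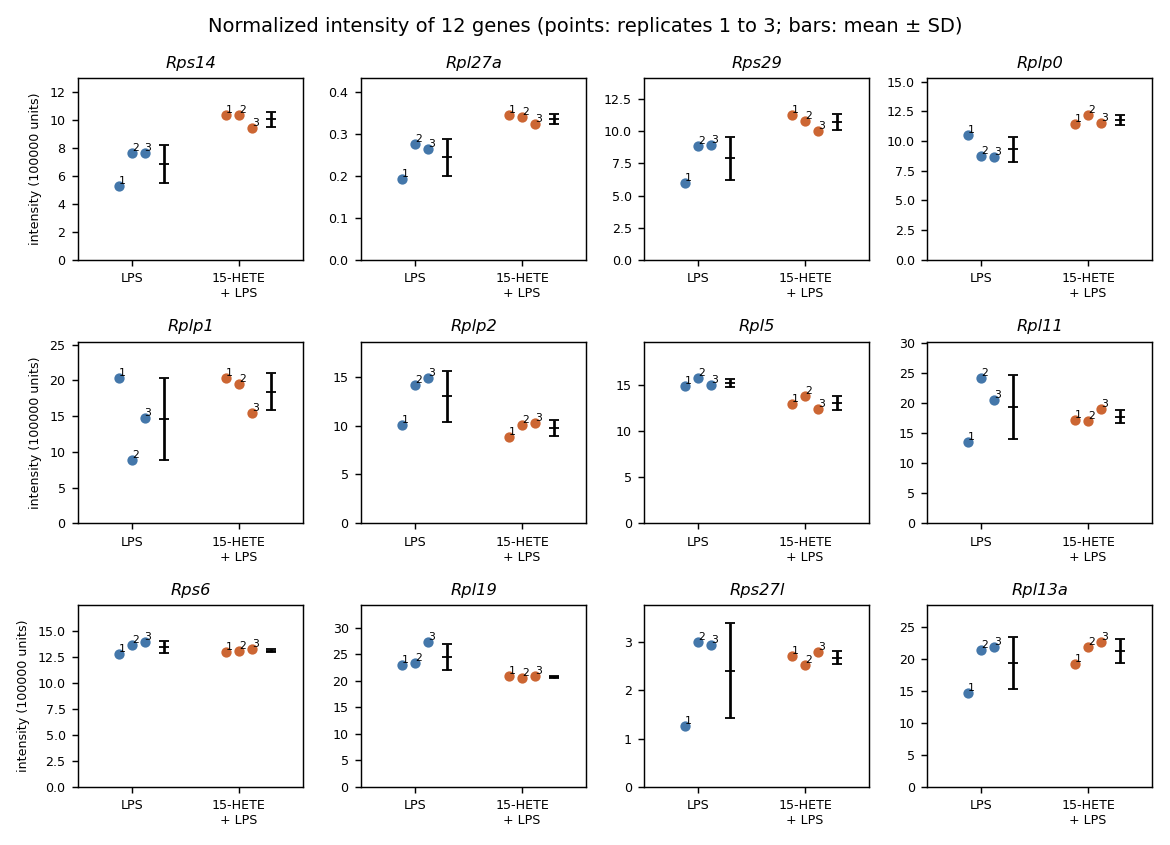
Intensity of 12 ribosomal protein genes in each of the 6 samples (vertical axis, linear intensity units from 0), with LPS and 15-HETE + LPS side by side. Numbered points are replicates and bars are mean ± SD (n = 3). Rps14, Rpl27a, Rps29, Rplp0, Rpl5 and Rpl19 have groups that do not overlap, Rps6 is nearly level, and LPS replicate 1 is far below the other points in Rps27l and Rpl13a.

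Rps6, the substrate of the S6 kinases and the usual readout of mTOR activity as a phosphoprotein, was nearly level. It read 1284319, 1362948 and 1399441 with LPS and 1300092, 1310664 and 1325501 with 15-HETE + LPS. The treated samples lay inside the range of the LPS samples. The log2 fold change was -0.04 (95% interval -0.43 to 0.35, limma adjusted p = 0.917), or -0.07 without LPS replicate 1. This mRNA level does not read the phosphorylation of the protein.

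Rpl5 and Rpl11 bind the 5S RNA together, and outside the ribosome they can hold Mdm2 and so stabilise p53. Rpl5 intensity was 1484704, 1570592 and 1499806 with LPS and 1286288, 1382921 and 1236803 with 15-HETE + LPS. All treated samples lay below all LPS samples, LPS replicate 1 included, and the log2 fold change was -0.22 (limma adjusted p = 0.501), or -0.24 without LPS replicate 1. Rpl11 read 1362948, 2421345 and 2051192 with LPS and 1728178, 1703238 and 1899216 with 15-HETE + LPS. Its LPS samples lay on both sides of the treated ones. The log2 fold change was -0.09 (limma adjusted p = 0.874), or -0.33 without LPS replicate 1 and 0.09 without LPS replicate 2.

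Lower values were also seen for Rpl19, a large subunit protein at the contact with the small subunit, which read 2300492, 2329593 and 2738831 with LPS and 2083779, 2051192 and 2083779 with 15-HETE + LPS. The groups did not overlap, and the log2 fold change was -0.24 (limma adjusted p = 0.487), or -0.29 without LPS replicate 1. Rps3a1, a small subunit protein, Rpl10, which joins the large subunit late near the peptidyl transferase centre, and Rpl7, of the large subunit, had log2 fold changes of -0.20, -0.13 and -0.10, with limma adjusted p of 0.593, 0.753 and 0.790. Each of these groups overlapped. Without LPS replicate 1 they gave -0.30, -0.24 and -0.05, and without LPS replicate 2 -0.15, -0.02 and -0.15, so single LPS samples decided their size.

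Of the members fixed by role, Rpl13a, which leaves the ribosome of interferon-stimulated monocytes and silences inflammatory mRNAs, read 1467859, 2143167 and 2187974 with LPS and 1915439, 2187974 and 2267553 with 15-HETE + LPS. Only LPS replicate 1 lay below the treated samples, and the log2 fold change was 0.16 (limma adjusted p = 0.744) or -0.03 without it. Rps19, a small subunit protein mutated in Diamond-Blackfan anaemia, and Rpl38, needed for translation of Hox mRNAs in the embryo, had log2 fold changes of 0.21 and 0.14 (limma adjusted p of 0.595 and 0.773), or 0.07 and -0.07 without LPS replicate 1. Rpsa was dim, at 493, 453 and 265 with LPS and 351, 162 and 243 with 15-HETE + LPS, and its log2 fold change of -0.70, the largest in size of all 62, had a wide interval (-1.62 to 0.21, limma adjusted p = 0.364) and was -0.53 without LPS replicate 1. As this mRNA is abundant in most cells, the dim probe may not read it, which was not tested.

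Paralogues were set beside the genes they are named after. Rps27l, a p53 target, read 127041, 301430 and 295240 with LPS and 272219, 253154 and 279180 with 15-HETE + LPS. LPS replicate 1 was far below the other samples, and the log2 fold change of 0.26 became -0.15 without it, beside 0.16 and 0.13 for Rps27. Rpl22l1, which can stand in for Rpl22, behaved likewise, with 0.15 and -0.19, beside 0.29 and 0.02 for Rpl22. The pair of Rpl36al and Rpl36a gave 0.21 and 0.14, and without LPS replicate 1 -0.08 and -0.09. Rpl7l1 gave 0.07 beside -0.10 for Rpl7, and 0.13 beside -0.05 without that replicate. Rpl3l, a muscle paralogue, and Rpl39l, a testis paralogue, were near or below the array median, with log2 fold changes of 0.17 and -0.29, beside -0.06 for Rpl3 and 0.29 for Rpl39. Without LPS replicate 1 these 4 gave 0.22, -0.41, 0.02 and 0.24. All paralogue values missed the test in limma, and near-identical family members and processed pseudogenes can share signal on a probe.

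The remaining 30 members, structural proteins of both subunits, had log2 fold changes from -0.08 to 0.43, of which 29 were above 0, and limma adjusted p from 0.395 to 0.990. LPS replicate 1 was the lowest sample in 28 of them, and without it the values ran from -0.24 to 0.55 with 18 above 0. Rpl30, at the upper end, read 343975, 574780 and 594244 with LPS and 652928, 655624 and 666152 with 15-HETE + LPS. Its groups did not overlap, and the log2 fold change of 0.43 was 0.17 without LPS replicate 1. Rpl35a read 166844, 372248 and 377055 with LPS and 340768, 349194 and 372248 with 15-HETE + LPS. There the other LPS samples were as bright as the treated ones, and 0.31 became -0.08. Rps12 differed from both, at 2018751, 1215103 and 2006361 with LPS and 2421345, 2421345 and 2018751 with 15-HETE + LPS. LPS replicate 2 was its lowest sample, and the log2 fold change was 0.42 (limma adjusted p = 0.423) beside 0.55 without LPS replicate 1 and 0.18 without LPS replicate 2.

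With the intensity trend and LPS replicate 1 left out, a setting chosen after seeing the data, limma called 8 members higher and 6 lower. At that setting 7.86% of all probes were higher and 7.69% lower. Of the other probes in the brightest 10%, 24% were higher and 24.7% lower, and of those in the brightest 1%, 16.3% and 20.2%. The members, at 12.9% and 9.7%, were thus called less often than other bright probes. The higher members were Rplp0, Rps14, Rps19bp1, Rpl27a, Rpl17, Rps29, Rplp1 and Rpl14, led by Rplp0 (log2 fold change 0.43, limma adjusted p = 0.00101). The lower ones were Rplp2 (-0.58, limma adjusted p = 0.000823), Rps3a1, Rpl11, Rpl19, Rpl26 and Rpl5. Stalk proteins were found on either side, and the 5S-binding pair was on the lower one. Rpl26 had a further probe in the brightest 1%, which gave 0.13 at this setting where the probe counted gave -0.24. Its place among the lower ones thus held for a single probe. Likewise Rpl14, among the higher ones, had a dimmer probe that gave -0.11 where the probe counted gave 0.25. With the same trend and any of the other 5 samples left out, 0 members were called, and LPS replicate 1 was the sample that stood apart, so these calls depend on its removal.

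Of the 9 genes with more than 1 probe, 7 had log2 fold changes of a single sign with all samples and 2 did not. Rpl26, a large subunit protein, gave -0.08 on its brightest probe and 0.27 on the other, and Rps15a, of the small subunit, gave 0.21 and, on a probe below the array median, -0.31. Without LPS replicate 1 the signs also differed for Rpl14 (0.25 and -0.11), Rpl34 (-0.02 and 0.41) and Rps24 (-0.05 and 0.06). The same held for Rpl31 (0.06, -0.07 and 0.07). The stalk gene Rplp0 had a dimmer probe that read 47944, 71692 and 68614 with LPS and 96206, 92775 and 98226 with 15-HETE + LPS. On this probe LPS replicate 1 was the lowest sample of all, whereas on the brighter probe it was the highest of the LPS group. The log2 fold change was 0.63 (limma adjusted p = 0.190, or 0.0380 with the intensity trend) against 0.34 on the brighter probe (0.351 and 0.268). Without LPS replicate 1 the probes gave 0.45 and 0.43.

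Members with and without a long pyrimidine run were close to each other. The 20 members with a run of at least 8 bases had a median log2 fold change of 0.17, and the 32 with a shorter run had 0.18, or -0.03 and 0.04 without LPS replicate 1. LPS replicate 1 was the lowest sample in 17 of the former and 22 of the latter. With and without CCGGAAG the medians were 0.16 (23 members) and 0.19 (29 members), or -0.07 and 0.03 without LPS replicate 1.

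Genes that make or serve ribosomes were compared by lists. Calls without the trend stand beside 0.509% of all probes higher and 0.442% lower. Of other mRNAs with a TOP motif, 19 of 28 listed were measured, and limma called 1 higher and 0 lower. That gene was Pabpc1, the poly(A)-binding protein, at 56252, 40282 and 41425 with LPS and 238161, 232904 and 245433 with 15-HETE + LPS (log2 fold change 2.39, limma adjusted p = 0.0312). The median of the list was -0.04. Next by p were Vim, which encodes the filament protein vimentin, and Cct4, a subunit of the chaperonin that folds actin and tubulin, with log2 fold changes of -0.42 and -0.61 (limma adjusted p of 0.243 and 0.273). The elongation factors Eef1a1 and Eef2 gave 0.32 and -0.34 (limma adjusted p of 0.388 and 0.452).

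LPS replicate 1 was the lowest sample in 1 of these 19 genes and the highest in 9, and its median difference from the other LPS samples was 0.35. The exception was Fau, which encodes a ubiquitin-like protein fused to a ribosomal protein of the small subunit, at 91629, 209717 and 195698 with LPS and 271654, 254264 and 251563 with 15-HETE + LPS. The displacement of LPS replicate 1 in the ribosomal proteins was thus not seen in the remaining TOP mRNAs of the list.

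It was seen in the mitochondrial ribosomal proteins, which build the separate ribosome of mitochondria from nuclear genes. LPS replicate 1 was the lowest sample in 52 of 65 of them (80.0%), with a median of -0.83 relative to the other LPS samples. Limma called 0 of the 65 in either direction and gave 5 higher and 1 lower at an unadjusted p under 0.05, where 8.62% and 11.0% of all probes passed. With the intensity trend it called 3 higher and 1 lower, beside 3.87% and 4.96% of all probes. Their median log2 fold change was 0.21 with all samples and -0.04 without LPS replicate 1. The lowest p values belonged to Mrps2, Mrpl24 and Mrpl11, with log2 fold changes of 0.62, 0.52 and 0.83 and limma adjusted p of 0.150, 0.196 and 0.179.

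**Figure D4:**
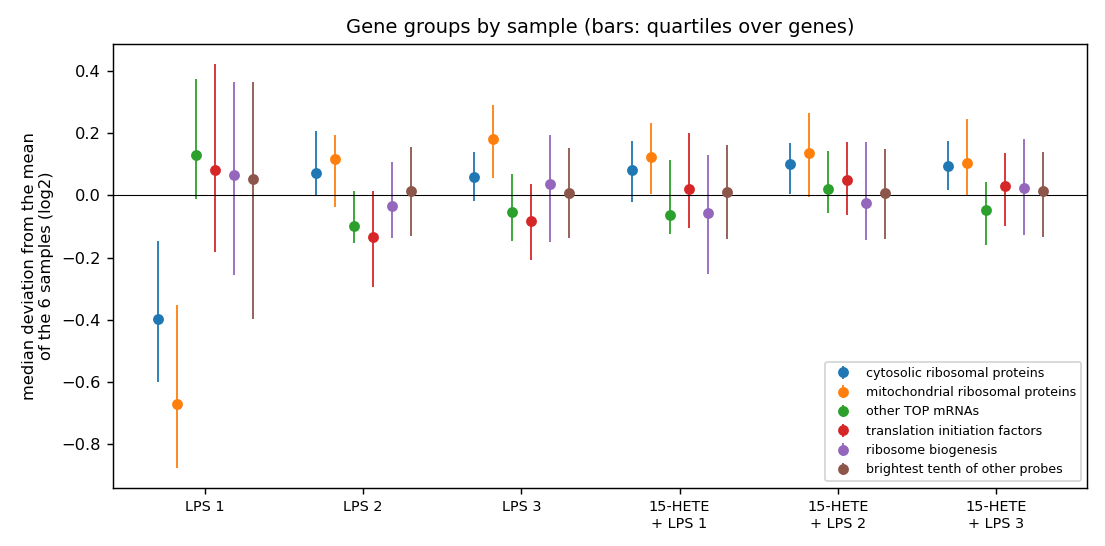
Median deviation (vertical axis, log2) of gene groups from each gene's mean over the 6 samples, by sample, with bars from the first to the last quartile over genes. Cytosolic and mitochondrial ribosomal proteins are low in LPS replicate 1, at -0.40 and -0.67, and the other groups have medians above 0 there.

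Ribosome biogenesis genes, which process and assemble ribosomal RNA, had 75 of 92 listed genes measured. Limma called 1 higher, Fbl, the methyltransferase of ribosomal RNA, at 4273, 6397 and 6305 with LPS and 21543, 18216 and 19779 with 15-HETE + LPS (log2 fold change 1.83, limma adjusted p = 0.0398), and 0 lower. Las1l, which cleaves precursor RNA, and the helicase Ddx27 gave 1.01 and 0.84 with limma adjusted p of 0.0839 and 0.0856. The median of the list was 0.01. When the prior followed intensity, limma called 10 of the 75 higher and 7 lower, beside 3.87% and 4.96% of all probes. Of the 75 genes, 74 lay above the array median. Among the 3241 other probes in the brightest 10%, limma with that prior called 218 higher and 318 lower. With that prior the calls, higher and lower, were 2 and 4 for the mTOR list, 4 and 2 for the initiation factors, 1 and 0 for other TOP mRNAs and 0 and 1 for RNA polymerase I.

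Of RNA polymerase I and its factors, which transcribe ribosomal RNA, 17 of 20 were measured and limma called 0, with 1 higher and 1 lower at an unadjusted p under 0.05. These were Ubtf, the factor that opens ribosomal DNA, at 0.51 and Taf1a, a subunit of the promoter selectivity factor, at -0.69 (limma adjusted p of 0.215 and 0.102), and Polr2f, a subunit shared by the RNA polymerases, gave 0.68 (0.327). Of mTOR and S6 kinase signalling, 25 of 39 were measured, and limma called 1 higher, Ddit4, an inhibitor of mTOR, at 4123, 3713 and 4319 with LPS and 9568, 10264 and 8548 with 15-HETE + LPS (log2 fold change 1.22, limma adjusted p = 0.0498). Pdcd4, an inhibitor of initiation, and Tsc1, a brake on mTOR, gave 1.16 and -1.09 (limma adjusted p of 0.0629 and 0.0704). Of 41 translation initiation factors limma called 1, Eif4g2, at 6298, 4482 and 4626 with LPS and 52262, 46409 and 48910 with 15-HETE + LPS (log2 fold change 3.28, limma adjusted p = 0.0289). Eif4ebp2, which holds the cap-binding factor, and Eif1ad gave -0.97 and 0.76 (limma adjusted p of 0.0792 and 0.102). The other genes of these lists missed the adjusted threshold, and a few genes belong to more than 1 list.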

How the data were processed

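Total RNA of 3 LPS and 3 15-HETE + LPS samples was measured on a mouse genome survey array. The deposited values are linear intensities, which the authors read on a chemiluminescent analyzer, processed with its expression software and quantile normalized. Sorted values differed by at most 0.224% between samples, so a sample cannot differ in overall brightness, and members near the top of the range can shift only against other bright probes. The filter on signal to noise was not repeated here.

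Intensities were turned to log2 and all 33012 probes were tested with limma 3.58.1 (default prior, two-sided) in R 4.3.3, with statmod 1.5.0 for the robust fit and Benjamini-Hochberg adjustment over all probes. Of the probes, 14411 carried a single gene symbol in the platform annotation, 247 carried more and 18354 were unnamed. The 62 members had 72 probes, and 9 had more than 1. The members and lists were chosen with earlier results of these data known. Genes were named if they were the 8 members of lowest p in each direction, members fixed by role, paralogues with their namesakes, or the 3 genes of lowest p in each other list, and Fau, Eef1a1, Eef2, Dcn, Krt8, Rpl26, Rpl30, Rpl35a, Rps12, Rps15a, Rps23 and others in counts were named after their values were seen. The script was tested on simulated data. Alternatives covered other tests, priors and normalizations, an offset of 50, a filter on dim probes, other probes of a gene, the replicate number as a block and each sample left out. The number of arrays limits precision.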

Additional observations from a re-analysis of the deposited data

How the results depend on the processing

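Calls of members stayed at 0 under all alternatives except the intensity trend with LPS replicate 1 left out, which gave 14. At an unadjusted p under 0.05, members that were higher numbered 1 with all samples in limma, 5 with the intensity trend, 5 among probes above the array median, 2 with the dimmest probe, 2 with the mean of probes, 0 with the methods' t-test over all probes, 13 with the trend without LPS replicate 1, and 0 to 3 when each sample was left out. Members that were lower numbered 0, and 1 with the methods' t-test, 10 with the trend without LPS replicate 1, and 0 to 1 when each sample was left out. For these unadjusted counts the share of all probes is given only for limma with all samples, 8.62% higher and 11.0% lower. Calls in the other lists numbered 4, and 33 with the trend, 23 among probes above the median, 0 and 1 with the methods' t-test over all probes and over those past the fold rule, 86 with the trend without LPS replicate 1, and 0 whichever sample was left out. Each list held 17 to 75 measured genes. The trend called 3.87% of all probes higher and 4.96% lower, and without LPS replicate 1 it called 7.86% and 7.69%. Of the other probes in the brightest 10%, the trend without LPS replicate 1 called 24% higher and 24.7% lower, so bright probes outside the lists were also called often. Without LPS replicate 1 and without the trend, limma called 0 probes on the whole array. The log2 fold changes of the 4 genes called with all samples were then 2.55 (Pabpc1), 1.64 (Fbl), 1.24 (Ddit4) and 3.43 (Eif4g2), beside 2.39, 1.83, 1.22 and 3.28 with all samples. The causes were not tested.

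With the replicate number as a block, members higher at an unadjusted p numbered 0 and calls in the other lists 0. Same-numbered samples had deviations that correlated at -0.02, 0.0035 and 0.02 across all probes, and differently numbered ones at -0.05 to 0.05. The labels link same-numbered samples only by the number, and whether they were handled together was not tested.

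The median of the members ranged from 0.03 to 0.26 and the large minus small difference from -0.03 to 0.0026 when each sample was left out. Of 32 named members, 21 kept their sign under every alternative. The other 11 changed sign when a sample was left out, with log2 fold changes from -0.032 to 0.26 for Rpl13a, -0.071 to 0.25 for Rpl38, -0.19 to 0.33 for Rpl22l1, -0.079 to 0.37 for Rpl36al, -0.15 to 0.47 for Rps27l, -0.098 to 0.021 for Rpl3, -0.33 to 0.086 for Rpl11, -0.45 to 0.57 for Rpl3l, -0.0010 to 0.13 for Rpl7l1 and -0.68 to 0.09 for Rpl39l. For Rpl36a the range was -0.094 to 0.26.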
